A study of Mus musculus with 4 samples.

Results

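Sp6 intervals that lie deep inside long genes were described in dental epithelium and dental mesenchyme of newborn mouse molars. An interval is a region with a local excess of sequenced fragments in the chromatin immunoprecipitation (ChIP-seq) library of 1 tissue. Deep intragenic intervals were all intervals of the 2 deposited gene tables that held no CpG island, had at least 1 row placing them inside a gene, and lay more than 100 kb from every gene start listed for them. The rule used position and CpG islands and no signal value. It took 503 of the 2381 intervals with a listed gene in epithelium (21.1%) and 1514 of 7211 in mesenchyme (21.0%), together 2017 of 9592. Merged where they overlapped, they marked 1555 distinct places.

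The donors were newborn C57BL/6 mice at P1 (postnatal day 1), and 30 molars were dissected according to the labels. The groups were Sp6 ChIP of dental epithelium, Sp6 ChIP of dental mesenchyme, input of dental epithelium and input of dental mesenchyme, with 1 library in each of the 4 groups. The Sp6 antibody was made in the submitters' laboratory. With 1 library per group there was no replicate error, nothing was tested between tissues, and every count below describes these libraries. No expression was measured, so the identity of the dissected tissues was not checked.

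Sp6, also called epiprofin, belongs to the SP/KLF zinc-finger proteins and is a transcription factor expressed in dental epithelium and needed for enamel formation. Factors of this family bind GC-rich DNA, often at promoters, while sites far inside a gene are usually studied as candidate enhancers that may act on the host gene or on a neighbour. Many of the longest mammalian genes encode neuronal adhesion molecules, ion channels and large scaffold proteins, although several are also expressed outside the nervous system.

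The deep intervals lay a median of 200.9 kb from the nearest listed start in epithelium (quartiles 140.4 and 320.2 kb) and 201.1 kb in mesenchyme (135.0 and 331.2 kb). The most distant lay in Dmd, the X-linked gene of the membrane-cytoskeleton linker dystrophin. In this gene 1 place was occupied in both tissues at 2204 kb from the start, where epithelium had a peak value of 29 and mesenchyme of 87, and mesenchyme alone had an interval at 2242 kb with a peak value of 28. The peak value is the density of fragments in an interval's highest bin, as the authors deposited it. Read totals were not given, so depth is unknown and peak values rank intervals within a library only. At the 100 kb threshold, the nearest interval taken in epithelium lay in Fstl4 at 100544 bp with a peak value of 25, and the nearest left out lay in Snx29 at 99411 bp with a peak value of 29. In mesenchyme these were Thada at 100156 bp (35) and Magi1 at 99914 bp (57).

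None of the deep intervals carried a promoter in the authors' promoter column or touched an interval of either input. These are 0 of 503 in epithelium, which allows a share of up to 0.596%, and 0 of 1514 in mesenchyme, which allows up to 0.198%, for counting error only. With every listed gene start more than 100 kb away, a promoter could hardly be present. The inputs had only 17 intervals in epithelium and 24 in mesenchyme, so their overlap could only be small. Exon, intron and untranslated-region positions were not analysed here.

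Median peak values differed little with distance from the gene start. The share of high values in epithelium was largest beyond 400 kb but did not rise steadily with distance. The median peak value of deep intervals was 30 in epithelium (quartiles 23 and 43, highest 247), against 28 in intervals inside genes at 5 to 50 kb from the start without CpG islands (22 and 38, highest 173) and 27 in all intervals with a listed gene (21 and 38). In mesenchyme it was 37 (27 and 55, highest 584), against 36 at 5 to 50 kb (26 and 54, highest 374) and 34 in all (25 and 51). Among deep intervals, 13.9% (Wilson 95% interval 11.2 to 17.2%, 70 of 503) belonged to the 10% of the epithelium table with the highest peak values and 13.1% (11.5 to 14.9%, 198 of 1514) to that of the mesenchyme table. At 5 to 50 kb these shares were 10.3% (8.41 to 12.7%) and 10.8% (9.54 to 12.1%). These Wilson intervals overlap in both tissues. Beyond 400 kb alone the share was 20.7% in epithelium (13.6 to 30.0%, 19 of 92), whose interval lies above that at 5 to 50 kb, and 13.8% in mesenchyme (10.3 to 18.3%, 40 of 289), whose interval overlaps it. Several of the 19 lie in the same gene, as in Cadps2, Cacna2d3 and Pde4d, while the Wilson interval takes them as independent. In epithelium the share was 13.3% (9.60 to 18.0%) at 100 to 200 kb and 11.1% (7.15 to 16.9%) at 200 to 400 kb. Both of these intervals overlap that beyond 400 kb. The Wilson intervals cover counting error only, and no test was run because intervals of 1 library are not replicates. Median lengths were 548 bp in deep epithelium intervals and 550 bp at 5 to 50 kb, and 620.5 and 622 bp in mesenchyme.

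**Figure D1:**
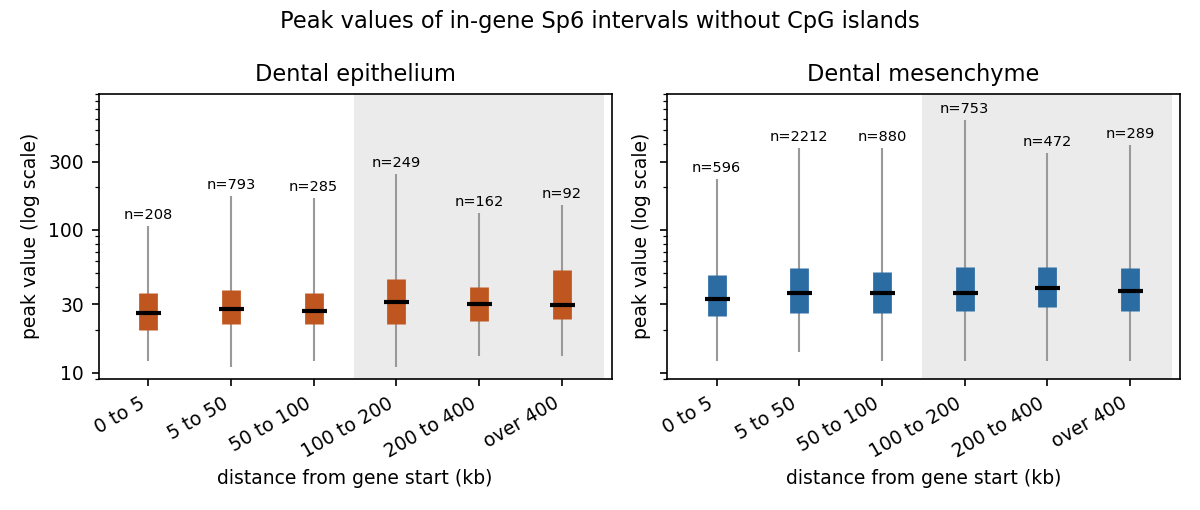
Peak values (log scale) of intervals inside genes and without CpG islands, by distance to the nearest listed gene start in kb, in dental epithelium and dental mesenchyme. Thick bars span the quartiles, black marks are medians, thin lines run from the lowest to the highest value, n counts intervals, and grey shading marks the deep intervals; medians stay between 26 and 31 in epithelium and between 33 and 39 in mesenchyme at every distance.

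Set against the length of gene body available, deep sequence held somewhat fewer intervals. Per megabase (Mb) of protein-coding gene body, epithelium had 1.64 intervals at 100 to 200 kb from the start (exact Poisson 95% interval 1.44 to 1.85), 1.35 at 200 to 400 kb (1.15 to 1.58) and 0.847 beyond 400 kb (0.682 to 1.04), against 1.85 at 5 to 50 kb (1.72 to 1.99). In mesenchyme the values were 4.90 (4.55 to 5.26), 3.94 (3.59 to 4.31) and 2.69 (2.39 to 3.02), against 5.10 at 5 to 50 kb (4.89 to 5.33). The lowest density was that beyond 400 kb in both tissues. Gene lengths came from RefSeq genes of a later assembly (GRCm38.p6), and they can exceed the gene models behind the tables. In at least 35 of 125 long genes with a row past the gene end, the table's model was more than 10% shorter than the RefSeq length. This was so in at least 21 of 83 genes of 100 to 200 kb, 9 of 31 of 200 to 400 kb and 5 of 11 beyond 400 kb. These are lowest counts, because the row used lies some way past the end of the model. The part of these models in the lower density was not tested.

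**Figure D2:**
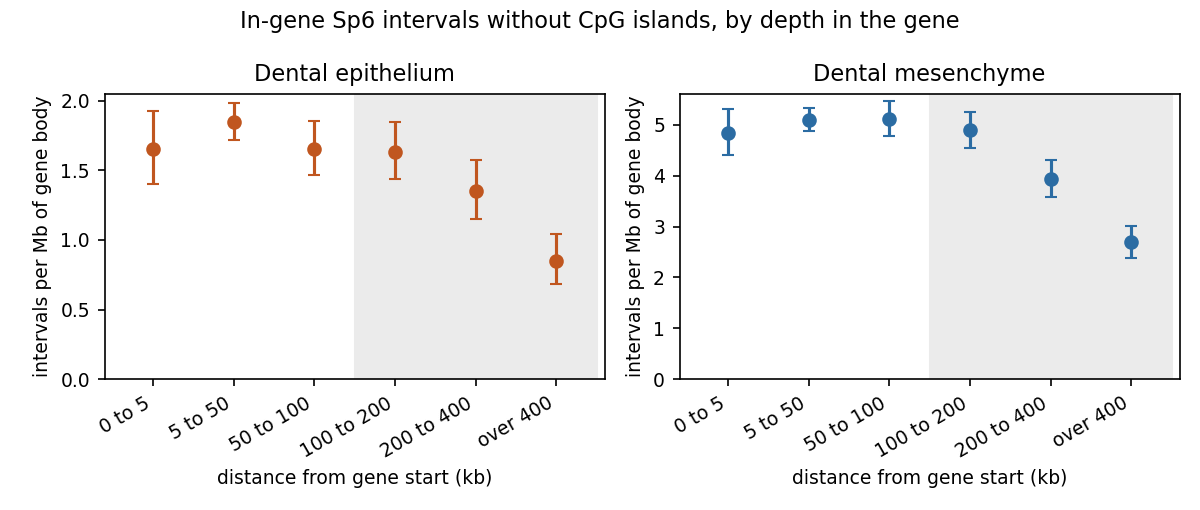
Intervals inside genes without CpG islands per Mb of protein-coding gene body (vertical axis, from 0, with its own scale in each panel) by distance from the gene start in kb, in dental epithelium and dental mesenchyme. Bars are exact Poisson 95% intervals for counting error and grey shading marks distances of more than 100 kb; the lowest values, 0.847 in epithelium and 2.69 in mesenchyme, lie beyond 400 kb.

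Most deep epithelium intervals had a mesenchyme counterpart at the same place. Of the 503 in epithelium, 462 (91.8%, Wilson 95% interval 89.1 to 93.9%) overlapped a mesenchyme interval by at least 1 bp, against 88.0% (85.6 to 90.1%) at 5 to 50 kb and 87.4% (86.0 to 88.6%) of all intervals with a listed gene. In mesenchyme 460 of 1514 (30.4%, 28.1 to 32.8%) overlapped an epithelium interval, against 31.4% (29.5 to 33.3%) and 28.7% (27.7 to 29.8%). In epithelium the Wilson interval of the deep share overlaps that at 5 to 50 kb and lies above that of all intervals, which include the deep ones, and no difference was tested. Both shares depend on the unequal sizes of the lists. With mesenchyme reduced to its 2381 highest intervals, they were 70.2% in epithelium and 60.9% in mesenchyme. The shared share followed the peak value. It was 79.4% in the 126 deep epithelium intervals with the lowest peak values, from 11 to 23, and 125 of 125 in those with the highest, from 44 to 247. In mesenchyme it was 6.86% in the lowest 379 (12 to 27) and 73.3% in the highest 378 (55 to 584).

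The overlap gave 462 pairs of deep intervals, whose peak centres were a median of 32 bp apart, and 452 of them lay within 100 bp. Epithelium had the higher deposited value in 25 pairs, mesenchyme in 436, and the value was the same in 1. As a log2 ratio, epithelium over mesenchyme, the pairs had a median of −1.07 (quartiles −1.45 and −0.65), against −0.96 (−1.34 and −0.55) at 5 to 50 kb. Scaling between the libraries is not stated, so these ratios describe deposited values and not binding.

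**Figure D3:**
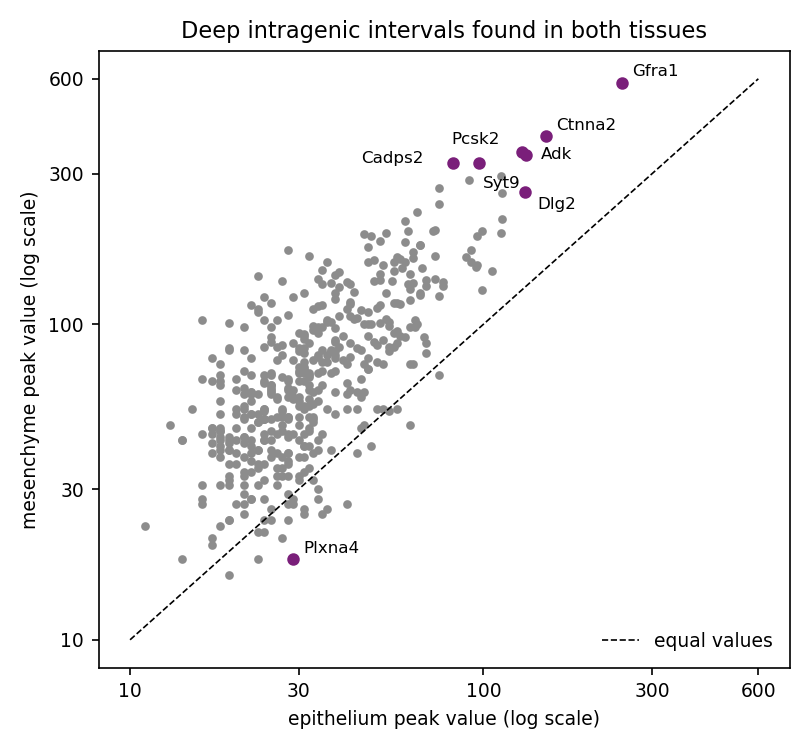
Peak values of the 462 pairs of deep intervals found in both tissues, epithelium on the horizontal and mesenchyme on the vertical axis, both on log scales; each point is 1 pair, the dashed line marks equal values and purple points are named. Gfra1 stands at the top right with 247 in epithelium and 584 in mesenchyme, and only 25 pairs lie on the epithelium side of the line.

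The highest deep intervals of epithelium lay in Gfra1, Ctnna2, Adk, Dlg2 and Pcsk2. Gfra1 encodes a co-receptor for glial cell line-derived neurotrophic factor (GDNF), and its interval at 153.5 kb led both tissues, with 247 in epithelium (chr19:58375081-58375869, mm9) and 584 in mesenchyme (chr19:58375045-58375876). Its chromosomal neighbour Atrnl1, an attractin-like membrane protein gene, had 91 and 287 at 466.6 kb. In Adk, the gene of adenosine kinase, the interval at 387.1 kb had 132 in epithelium (chr14:22258661-22259333) and 344 in mesenchyme. Adk held another shared place (chr14:22071525-22072172 in epithelium), with 35 in epithelium and 115 in mesenchyme, and 4 weaker intervals of mesenchyme alone between 30 and 36. Carmil1, which encodes a regulator of actin capping, had 113 in epithelium and 216 in mesenchyme at 107.1 kb. Rbm20, the gene of a splicing factor best known from heart muscle, had 112 and 194 at 160.1 kb.

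Pcsk2, Syt9, Gnao1 and Cadps2, which act in neurons or endocrine cells, were also among the highest. Pcsk2, which encodes a prohormone convertase of secretory granules, had 129 in epithelium and 351 in mesenchyme at 111.8 kb. Syt9, a synaptotagmin gene for calcium-triggered vesicle fusion, had 97 and 324 at 157.6 kb, and Gnao1, the gene of a G protein alpha subunit abundant in neurons, had 112 and 296 at 122.5 kb. Cadps2, which encodes a priming factor of dense-core vesicles, held 5 deep intervals in epithelium and 8 in mesenchyme, and all 5 epithelium intervals were shared. Of these, 3 lay close together at 544.5, 546.5 and 553.1 kb. The one at 546.5 kb was the highest of the gene in epithelium, with 106 there (chr6:23242406-23243080) and 148 in mesenchyme, while the one at 553.1 kb was the highest in mesenchyme, with 82 in epithelium and 324 in mesenchyme (chr6:23235752-23236602).

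Such an order of places within a gene does not depend on a single scaling factor between the libraries. Of 90 host genes with 2 or more shared pairs, 61 (67.8%) had their highest peak value at the same place in both tissues and 29 did not. Among the 63 with exactly 2 pairs the place was the same in 44, and among the 27 with 3 or more in 17 (63.0%). The agreement that a random order of places would give was not set beside these counts. The counts of 61 and 44 include Pde4d, whose 2 pairs share the same mesenchyme interval, so that its agreement was fixed in advance. Kirrel3, also among the 61, has an epithelium interval that stands in 2 pairs, and so does its highest mesenchyme interval. The 61 also include genes with a tied highest value in epithelium. Cux1 had 57 there at places with 117 and 95 in mesenchyme, and Ptprg had 31 at places with 126 and 92. Among the 29, Cadps2 is described above. The order also differed in Utrn, the utrophin gene, with 45 in epithelium and 47 in mesenchyme at one place and 25 and 98 at the other, and in Pcca, a mitochondrial carboxylase gene, with 42 and 62 against 36 and 158. Without replicates the error of these orders is unknown. These genes were chosen after their values were seen.

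The host of an interval is the gene whose row places it inside. Deep intervals had 352 host names in epithelium and 710 in mesenchyme, of which 341 (96.9%) and 678 (95.5%) matched a RefSeq symbol or synonym on the same chromosome. Of the protein-coding genes longer than 100 kb, 339 of 2429 held a deep interval in epithelium (14.0%) and 674 in mesenchyme (27.7%). These shares, 14.0% and 27.7%, are the background for the gene groups below. They grew with gene length, as the rule itself favours, since a gene barely longer than 100 kb has almost no sequence that can qualify. Of genes of 100 to 200 kb, 5.21% held one in epithelium and 12.6% in mesenchyme, of those of 400 kb to 1 Mb 34.5% and 59.7%, and of the 59 genes over 1 Mb 42.4% (Wilson 95% interval 30.6 to 55.1%) and 66.1% (53.4 to 76.9%). Hosts had a median length of 321.1 kb in epithelium and 290.8 kb in mesenchyme, against 171.8 kb for all long genes, a difference that the rule likewise favours. Both tissues shared 331 hosts, which is 97.6% of the epithelium hosts and 49.1% of the mesenchyme hosts.

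Few long genes, whether hosts or not, had an interval at their own start. In epithelium 13 of 339 hosts (3.84%, 2.26 to 6.45%) had an interval of any kind within 5 kb of the start, against 51 of 2090 other long genes (2.44%, 1.86 to 3.19%). In mesenchyme 65 of 674 hosts did (9.64%, 7.64 to 12.1%), against 120 of 1755 (6.84%, 5.75 to 8.12%). The Wilson intervals of hosts and other long genes overlap in both tissues. Within 100 kb of the start, 25.4% of hosts had an interval in epithelium, against 17.1% of other long genes. In mesenchyme these shares were 46.1% and 36.9%. For most hosts the deep interval was thus listed without one at the start, and most other long genes had none there either.

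Most hosts held a single deep interval in epithelium. This was so for 254 of 352 hosts in epithelium (72.2%) and 376 of 710 in mesenchyme (53.0%), while 34 and 182 hosts held 3 or more. Neighbouring deep intervals of 1 host were a median of 36.2 kb apart in epithelium (quartiles 13.7 and 129.3 kb) and 30.9 kb in mesenchyme (9.75 and 78.5 kb). Intervals of 1 host are not independent of one another.

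The host with the most over both tissues was Tenm4, which encodes a teneurin, a large transmembrane protein of cell adhesion. It held 6 deep intervals in epithelium, all shared, and 15 in mesenchyme, from 207.0 to 673.7 kb. The highest lay at 462 kb, with 77 in epithelium (chr7:103820859-103821545) and 132 in mesenchyme (chr7:103820750-103821613). Auts2, the gene of a nuclear regulator of transcription and neuronal development, held 4 in epithelium and 14 in mesenchyme, and Sema5a, which encodes a transmembrane semaphorin that guides axons, also held 4 and 14. In Sema5a the interval at 198.3 kb had 96 in epithelium and 154 in mesenchyme, and 1 of mesenchyme alone at 406.6 kb had 90.

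Among the 10 hosts with most deep intervals, Ctnna2 and Dnm3 showed the widest gap in number between the tissues. Ctnna2 encodes alpha-N-catenin, which links cadherins to actin. It held 1 deep interval in epithelium and 16 in mesenchyme. The single shared place at 979.1 kb had 150 in epithelium and 394 in mesenchyme, and the other 15 mesenchyme intervals had peak values from 18 to 62. Dnm3, a dynamin gene for membrane scission, held none in epithelium and 11 in mesenchyme, from 122.3 to 425.7 kb with peak values from 21 to 63. The tissues also differ in the size of their lists, with 503 deep intervals in epithelium and 1514 in mesenchyme, and the part of list size in these gaps was not tested.

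Cacna2d3, a calcium channel subunit gene, held 3 deep intervals in epithelium and 12 in mesenchyme, with 113 in epithelium and 261 in mesenchyme at 636.0 kb. Kirrel3, an adhesion gene of the immunoglobulin superfamily, held 5 and 9, including a close pair at 115.3 and 116.4 kb that was present in both tissues. The values of that pair were 48 and 47 in epithelium and 100 and 72 in mesenchyme. Rbfox1, the gene of a splicing regulator, held 4 and 8, spread from 452.0 to 1463 kb, and Atxn1, the ataxin-1 gene, held 3 and 8.

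**Figure D4:**
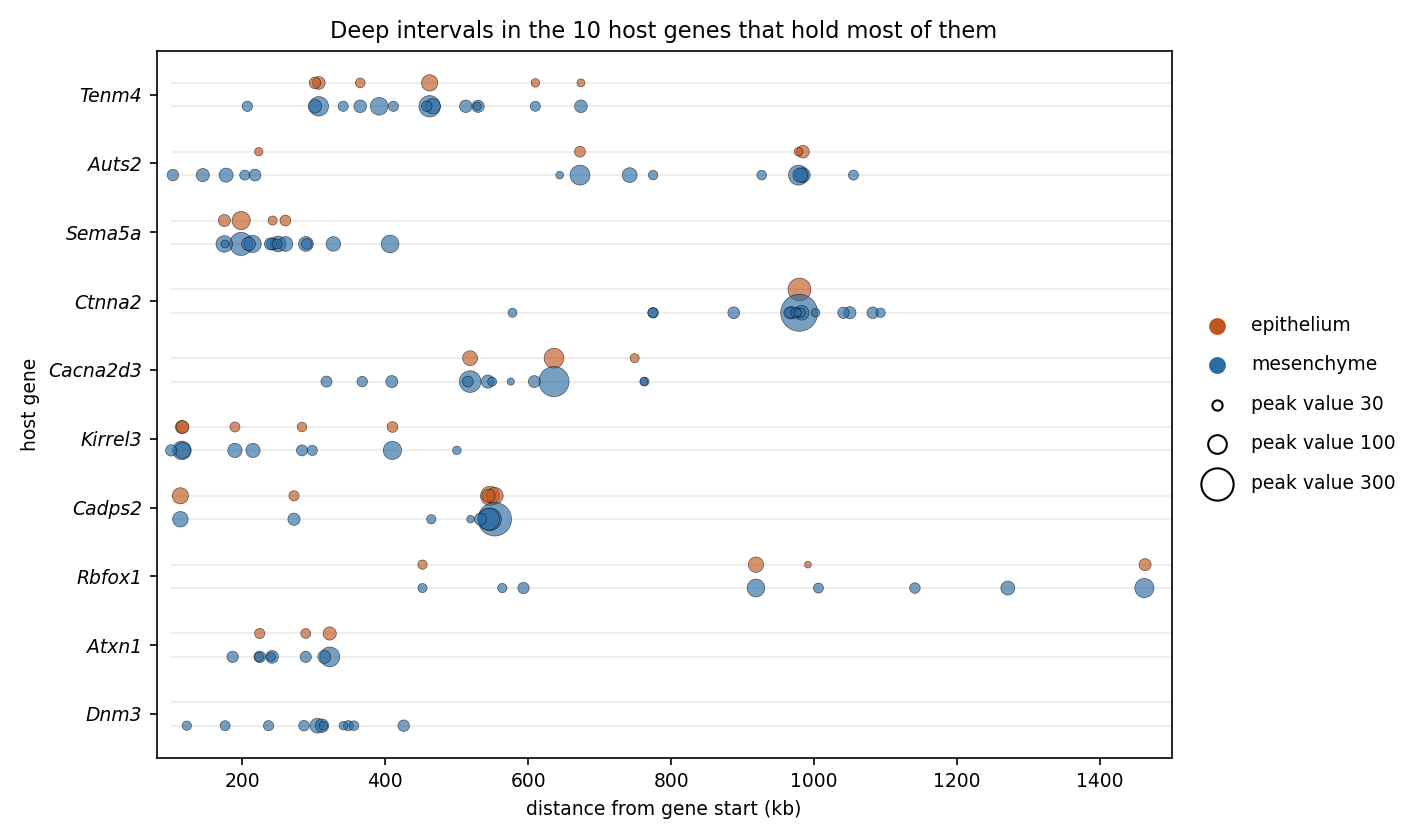
Positions of deep intervals as distance from the gene start in kb in the 10 host genes that hold most of them, with epithelium above mesenchyme for each gene; each circle is 1 interval and its area is proportional to the peak value. Epithelium circles mostly stand over mesenchyme circles, Ctnna2 has 1 in epithelium and 16 in mesenchyme, and Dnm3 has none in epithelium and 11 in mesenchyme.

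The hosts were sorted into 16 lists of gene functions, which were chosen with earlier results of these data known. The lists hold 317 of the 682 hosts of either tissue (46.5%), and 655 of the 2429 protein-coding genes longer than 100 kb. They thus hold a larger share of the hosts than of the long genes. The part of this choice in the list counts below was not tested. Of these lists, 15 are reported. Each gene stands in 1 list only. A list was read against the background shares of 14.0% and 27.7%, and also against the number of genes it would have at the share of all genes of the same length classes (100 to 200, 200 to 400, 400 kb to 1 Mb and over 1 Mb). No test was run on a list.

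Neural adhesion genes were hosts at about the rate of other genes of their length. Of 48 long genes of synaptic and neural cell adhesion, 18 held a deep interval in epithelium and 29 in mesenchyme, where their length classes gave 15.4 and 26.5. Cntnap5a, of the contactin-associated family, had 25 in epithelium and 117 in mesenchyme at 146.4 kb, and Clstn2, a calsyntenin gene, had 54 and 102 at 205.4 kb. Of 51 ion channel and neurotransmitter receptor genes, 15 in epithelium and 24 in mesenchyme were hosts, where length gave 13.5 and 24.6. Grik1, a kainate receptor gene, had 75 in epithelium and 270 in mesenchyme at 328.1 kb. Cacna1c, which encodes the pore of an L-type calcium channel, had 72 and 197, and Grid1, a delta glutamate receptor gene, had 66 and 178.

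Axon guidance genes numbered 10 hosts of 31 in epithelium and 16 in mesenchyme, where length gave 6.09 and 11.3. They included both sides of a ligand and receptor system. Slit3, which encodes a secreted repellent, had 61 in epithelium and 198 in mesenchyme at 450.9 kb (chr11:35385430-35386164 in mesenchyme). Robo2, a receptor for Slit proteins, had 99 and 198 at 105.3 kb. Plxna4, a semaphorin co-receptor gene, had 63 and 162 at 263.9 kb. At another of its places Plxna4 had the pair most tilted to epithelium, with 29 in epithelium and 18 in mesenchyme (log2 ratio 0.69).

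Cytoskeletal and scaffold genes had 19 hosts of 58 in epithelium and 34 in mesenchyme, where length gave 14.5 and 26.5. Dlg2, a postsynaptic scaffold gene, had 131 in epithelium and 262 in mesenchyme at 1015 kb. Mtss1 (35 and 134) and Sorbs2 (37 and 102) encode actin-associated proteins, and Map2 (42 and 116) encodes a neuronal microtubule protein. Kinase and phosphatase genes had 18 of 57 in epithelium and 31 in mesenchyme, where length gave 11.97 and 22.3, with Camk4, a calcium-dependent kinase gene, at 63 in epithelium and 169 in mesenchyme. Of 16 cyclic nucleotide genes, 6 were hosts in epithelium and 8 in mesenchyme, where length gave 3.23 and 6.14. The phosphodiesterase gene Pde4d had 67 in epithelium and 151 in mesenchyme at 888.2 kb, and the same mesenchyme interval also overlapped an epithelium interval with 59 at 887.6 kb.

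By the difference in number, transcription factor genes stood farthest above their length classes. Of 75, 26 were hosts in epithelium (34.7%, 24.9 to 45.9%) and 44 in mesenchyme (58.7%, 47.4 to 69.1%), where length gave 14.6 and 27.8. This was the list with the most long genes, and a difference in number favours a large list. In proportion, other lists stood higher in epithelium. Ubiquitin ligase and protein processing genes had 9 hosts where length gave 4.30, and chromatin regulators 9 where it gave 4.50. Cyclic nucleotide genes had 6 where it gave 3.23, and tooth, enamel and bone genes 2 where it gave 1.04. In mesenchyme, ubiquitin ligase and protein processing genes, with 14 where length gave 8.74, stood about as high in proportion as transcription factor genes. The transcription factor count in mesenchyme includes Znrf3, a membrane ubiquitin ligase gene of WNT signalling, and both transcription factor counts include Auts2. The highest value in mesenchyme lay in Npas3, a neural bHLH-PAS factor gene, with 23 in epithelium and 142 in mesenchyme. It was followed there by Gli3, an effector of hedgehog signalling, with 55 and 137 at 247.2 kb (chr13:15802335-15803363 in mesenchyme). Cux1, a homeodomain repressor gene, had the highest value of the list in epithelium, 57 at 2 places, with 117 in mesenchyme at the one 241.4 kb from the start. Gli2, the paralogue of Gli3, had 50 and 86 at 162.1 kb. Chromatin regulators had 9 hosts of 34 in epithelium and 13 in mesenchyme, where length gave 4.50 and 9.03. Both counts include Rbfox1, the splicing regulator gene described above. Smarca2, which encodes a catalytic subunit of the BAF remodelling complex, had 57 in epithelium and 164 in mesenchyme. Setbp1, a nuclear protein gene, had 47 and 158 and Chd6, a helicase gene, had 33 and 112.

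Matrix and integrin genes had 7 hosts of 51 in epithelium and 20 in mesenchyme, where length gave 9.28 and 17.8. Adamts17, a secreted metalloproteinase gene, had 107 and 88 at 2 places of mesenchyme alone, the first at 147.2 kb, and a shared place with 25 in epithelium and 62 in mesenchyme. Fras1, which encodes an epithelial basement membrane protein, had 44 and 105 at its shared place, and Ext1, which makes heparan sulfate chains, had 56 and 94. Cadherin, catenin and protocadherin genes had 6 hosts of 25 in epithelium and 7 in mesenchyme, where length gave 5.74 and 10.2. Cdh2, the N-cadherin gene, had 45 in epithelium and 83 in mesenchyme at 170.7 kb, and Ctnna3 had 31 and 72.

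The list of common fragile site and other very long genes stood furthest below in number. Further very long hosts, such as Dmd, Dlg2, Ctnna2, Cntnap2 and Lrp1b, were assigned to other lists and not to this one. Its count therefore depends on that assignment and describes no class of very long genes. It had 5 hosts of 35 in epithelium and 16 in mesenchyme, where length gave 11.7 and 19.9. Cdkal1, a tRNA-modifying enzyme gene, led it with 60 in epithelium and 213 in mesenchyme. Wwox, a tumour suppressor gene at a fragile site, held 7 deep intervals in mesenchyme and none in epithelium. Transport and metabolic genes had 12 hosts of 59 and 25, where length gave 9.68 and 18.6, with Sorl1, a sorting receptor gene, at 73 in epithelium and 199 in mesenchyme. Ubiquitin ligase and protein processing genes had 9 hosts of 31 and 14, where length gave 4.30 and 8.74.

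**Figure D5:**
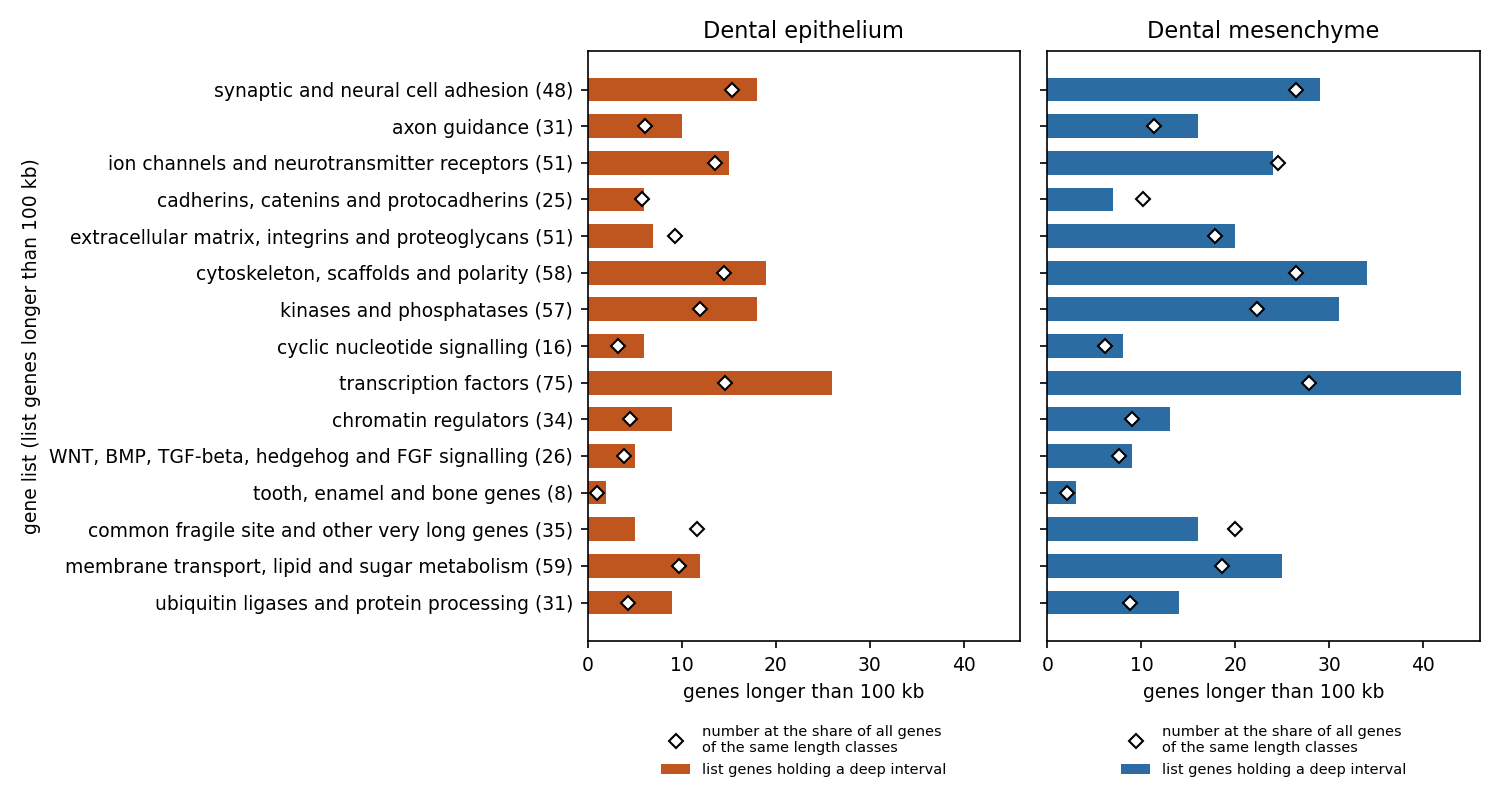
Number of genes longer than 100 kb that hold a deep interval in each of 15 gene lists (bars, from 0), with the number of long genes of the list in parentheses, in dental epithelium and dental mesenchyme. Diamonds give the number at the share of all protein-coding genes of the same length classes; transcription factors have 26 in epithelium and 44 in mesenchyme against 14.6 and 27.8, and the fragile site list has 5 and 16 against 11.7 and 19.9.

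Genes of tooth, enamel and bone are mostly short, and only 8 of the 52 listed exceed 100 kb. Of these 2 were hosts in epithelium and 3 in mesenchyme, where length gave 1.04 and 2.10. Stim1, the calcium sensor of the endoplasmic reticulum that is needed for enamel maturation, had 29 in epithelium and 62 in mesenchyme at 113.6 kb, 28 and 39 at 145.5 kb, and 2 weaker intervals of mesenchyme alone. Slc4a4, a bicarbonate transporter gene of enamel and kidney, had 39 and 21 in mesenchyme and no deep interval in epithelium. Esr1, the oestrogen receptor alpha gene, had 20 and 47 at its shared place.

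In the list of WNT, BMP, TGF-beta, hedgehog and FGF signalling, 5 of 26 genes were hosts in epithelium and 9 in mesenchyme. Length gave 3.88 and 7.56. Both counts include Lrp1b, a lipoprotein receptor-related gene, and Frmd5, a FERM domain gene, which are not core genes of these pathways. The same holds for the GDNF co-receptor gene Gfra1 and for Notch2, which both counts also include. Beside Gfra1 the hosts included Tgfbr3, the betaglycan co-receptor gene, with 31 in epithelium and 71 in mesenchyme at 155.4 kb, and Notch2, with 32 and 58 at 114.3 kb. A few further hosts were singled out after their values were seen, for their known roles in teeth and skeleton. Runx2, the master factor of bone formation, had 27 in epithelium and 33 in mesenchyme at 146.6 kb. Lef1, a nuclear effector of WNT signalling needed for tooth development, had 19 and 24 at 103.8 kb. Lama3, a laminin-332 chain gene, had a shared place with 33 and 56 and an epithelium interval without counterpart at 170.2 kb, with a peak value of 21. Trps1, a GATA-type repressor gene, had 25 and 26 at a shared place 209.7 kb from its start, and 30 and 39 at 2 places of mesenchyme alone.

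Deep intervals without a counterpart were weak in epithelium. The 41 had a median peak value of 20, against 31 in the 462 shared ones. The highest lay in Lrch1 (38, chr14:75187461-75187893), Plxdc2 (37), Ano2 (34), Ankrd44 (31) and Sorcs1 (29), of which Ano2 encodes a calcium-activated chloride channel and Sorcs1 a sorting receptor. Of the 41, 33 lay in a host that held other deep intervals in mesenchyme and 8 did not. Those 8 lay in the hosts found in epithelium only, Astn1, Ctnna1, Farp1, Mbp, Pcdh9, Pcsk6, Stox2 and Synpo2, each with 1 interval and a peak value from 14 to 28.

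In mesenchyme the 1054 deep intervals without a counterpart had a median of 32, against 66 in the 460 shared ones. Some were strong. Tmem117, a transmembrane protein gene, had 132 at 316.1 kb (chr15:94775292-94775968), and Myof, the gene of the membrane-repair protein myoferlin, had 124 at 133.7 kb. Bnc2, a zinc-finger gene, had 93 at 238.9 kb, and Tbc1d22a also had 93. In Bnc2 the shared place at 210.1 kb was the opposite case, with 44 in epithelium and 39 in mesenchyme. Of the 1054, 524 lay in a host that also held a deep interval in epithelium and 530 in a host that held none.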

How the data were processed

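Sp6 ChIP and input libraries of dental epithelium and dental mesenchyme were analysed from the deposited interval lists and, for the Sp6 libraries, gene tables. The submitters' processing notes name the build mm9 and the caller MACS 1.3.7.1. The aligner, thresholds, scaling and use of the inputs were not given in the sources used here, and each list belongs to 1 library. Peak and average values are signal (fragment density), per the file headers, and were deposited by the authors without read totals, so depth and its precision are unknown. Distances and positions are the authors' values in bp, per the file headers. In 4044 of 4044 neighbouring rows inside 1 gene, distances changed by exactly as much as peak centres (0 bp tolerance). Coordinates are printed counted from 1.

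Deep intervals were taken by the rule given above, over all rows of an interval. In 1 interval per tissue the table lists fewer genes than its own gene count. Another 4 mesenchyme intervals have 2 hosts. Host names were matched to RefSeq symbols, or to a single synonym, on the same chromosome (GRCm38.p6), which gave names and gene lengths only. Host names that a spreadsheet had turned into dates numbered 2 and stayed unmatched. Overlap needed at least 1 bp. Shares carry Wilson and densities exact Poisson 95% intervals (scipy 1.17.1, pandas 2.3.3), and a count of 0 allows 3 counts. Overlapping genes count once each in densities. The overlap and selection code was tested on simulated data. The members and the lists were chosen with earlier results of these data known. Named genes are the hosts of the 10 highest intervals per tissue and of the 10 highest shared pairs, the 10 hosts with most intervals, the 6 farthest, the highest without a counterpart (5 and 10), and up to 4 per list, 87 in all, of which those that carry the description are printed. A few of them, and 1 gene list, are not reported here. Unnamed transcripts were skipped and ties broken by symbol. Alternatives changed the distance, CpG rule, overlap, peak threshold, inputs, value column and name matching.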

Additional observations from a re-analysis of the deposited data

How the results depend on the processing

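Of 72 alternative values for 41 results, 53 kept their size and 19 moved, and the log2 ratio did not change sign. A count kept its size when it stayed within 1.5 times of the reported one, and a share or median when it stayed inside the 95% interval of the reported one, so shares and medians were held to a narrower limit than counts. No paired analysis was possible because each group has 1 library, and for the same reason no library could be left out. Counts of deep intervals follow the distance: 788 in epithelium and 2394 in mesenchyme above 50 kb, and 254 and 761 above 200 kb. Among the 50% of intervals with the highest peak values they were 299 and 850. Requiring overlap of 50% of both intervals gave a shared share of 86.9% in epithelium. With mesenchyme reduced to its 2381 highest intervals the shared shares were 70.2% in epithelium and 60.9% in mesenchyme, so the 91.8% and 30.4% depend on the unequal sizes of the lists. With the average value in place of the peak value, medians were 13.6 in epithelium and 14.9 in mesenchyme, another quantity on its own scale, and the median log2 ratio was −0.67. The share of genes holding a deep interval was 26.7% in epithelium and 49.8% in mesenchyme among genes longer than 200 kb, 11.3% and 22.8% with names matched by symbol only, and 9.30% and 20.2% in the top 50% of intervals. By symbol only, the fragile site list had 3 hosts in epithelium, and the other 31 list counts stayed within 1.5 times. Counting error only is covered by the intervals, and depth sets an unknown limit on what each list could hold.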

Other observations

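Deep intervals lay on all autosomes and the X chromosome. Chromosome 6 held the most, with 42 in epithelium and 123 in mesenchyme, and chromosome X had 2 in epithelium and 22 in mesenchyme. No length of long-gene sequence per chromosome was set beside these counts.

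Of the 25 pairs with a higher deposited value in epithelium, several lay in genes that also held pairs tilted the other way. Pde8b, a phosphodiesterase gene, had 57 in epithelium and 54 in mesenchyme at one place and 38 and 82 at another. Dlgap2, a postsynaptic scaffold gene, had 34 and 30, and 28 and 45. Tbc1d5, a regulator of vesicle traffic, had 62 and 48 at its only shared place, and Etv6, an ETS-family repressor gene, had 48 and 41 at its only shared place. These genes were chosen after their values were seen, and without replicates the error of each value is unknown.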
